A study of Mus musculus with 2 samples.

Results

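Strand exchange is the step of meiotic recombination at which a broken chromosome finds and pairs with its homologue. The 9 genes described here encode proteins of that step: Dmc1, Brca2, Hsf2bp, 4930432K21Rik, Psmc3ip, Mnd1, Meiob, Spata22 and Brip1. They were taken by symbol from the 20476 gene rows of the deposited count table, all 9 were found, and each was followed across germ cell stages that were set by marker genes. The data are single-cell RNA counts of total testis cells from adult mice whose strain is labelled C57BL/CJ;ICR. One library came from WT testes and 1 from testes of miR-202-/- mice, which lack the microRNA miR-202, so no genotype had a replicate. The labels give neither how the allele was made nor how many animals were pooled.

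The columns of the table are cell barcodes that end in mark 1 or mark 2. Which mark belongs to which genotype is not stated, genotypes were therefore not compared, and the values of both marks are given side by side. Mark 1 had 12935 barcodes and 158740437 UMIs (unique molecular identifiers, 1 per captured transcript molecule), with a median of 6061 UMIs per barcode. Mark 2 had 15310 barcodes and 168967776 UMIs, with a median of 5509. The shallowest barcodes held 3924 and 3529 UMIs, and 73 barcode sequences occurred under both marks. With 1 library per genotype no test across samples was possible, so intervals cover counting error only and no p-value is given.

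In early prophase of meiosis, SPO11 cuts the chromosomes and the cut ends are trimmed to single strands, which the protein RPA coats. BRCA2 brings recombinases such as DMC1 onto these strands, and the resulting filaments invade the homologous chromosome. In mouse spermatocytes this happens from leptotene through zygotene, and breaks are repaired during pachytene. DMC1 is the recombinase found only in meiosis. HSF2BP and the product of 4930432K21Rik, also called BRME1, bind BRCA2. PSMC3IP, also called HOP2, and MND1 form a dimer that helps the filament capture its partner, MEIOB and SPATA22 form a complex on single strands, and BRIP1 is a helicase of the BRCA1 pathway.

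Germ cells of each stage were gated by markers that include none of the 9 genes. The spermatogonial gates took barcodes high in genes such as Gfra1 and Etv5 (undifferentiated) or Kit and Sohlh1 (differentiating), and they held 67 and 104 barcodes. The preleptotene gate rested on Stra8, Gm4969 and Prss50 and held 38 barcodes of mark 1 and 22 of mark 2. The leptotene-zygotene gate, led by genes such as Prdm9, Meioc and Mei4, held 92 and 50. The pachytene gate of Piwil1, Mybl1 and tudor genes held 242 and 282, and the diplotene and dividing gate of Ccna1, Cdc25c and spindle genes held 377 and 332. Round spermatids gave 894 and 1034 barcodes and elongating spermatids 2291 and 2734. Sycp3, an axis protein of meiotic chromosomes that was no marker, was highest in the leptotene-zygotene gate. It stood there at 1044 and 1158 UMIs per 1000000 (CPM), and at 37.0 CPM under both marks in round spermatids. Sycp1, also no marker, was highest there too, at 1152 and 1131 CPM. Spo11 and Hormad1, no markers either, were highest in pachytene. Spo11 was at 131 and 120 CPM in pachytene, against 75.1 and 65.2 CPM in the leptotene-zygotene gate. Hormad1 was at 255 and 306 CPM against 253 and 290 CPM. Pgk2 was lower in pachytene, at 113 and 97.7 CPM, than in undifferentiated spermatogonia, at 188 and 226 CPM. The gates left out 66.0% of barcodes, which passed no rule.

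Free RNA, released by broken cells and captured with intact ones, bears on every low level below. Sertoli cells, the supporting cells of the tubule, were assumed to lack these transcripts, which was not tested. On that assumption their gate of 361 and 315 barcodes is given as the background. Prm1, a sperm chromatin protein made late in spermatids, reached 27104 and 24257 CPM in the Sertoli gate. It reached 13960 and 21920 CPM in the preleptotene gate, 9888 and 12774 CPM in the leptotene-zygotene gate, and 3889 and 4180 CPM in the pachytene gate. An estimate from 4 spermatid transcripts put free RNA at 56.9% and 94.6% of the preleptotene UMIs, 35.6% and 54.5% of the leptotene-zygotene UMIs, and 15.4% and 16.7% of the pachytene UMIs. The preleptotene gate of mark 2 therefore held few UMIs beyond free RNA by that estimate. The Sertoli gate came out at 100% under both marks, the value at which the estimate was capped. That gate held the Sertoli markers at 4551 and 5529 CPM, against 72.6 and 63.7 CPM in barcodes in no gate. Its RNA was therefore not all free RNA, and the estimate was too high there. How far the estimate is too high in germ gates was not tested. By this estimate the Sertoli level overstates the background of germ gates with less free RNA. An overlap with the Sertoli interval therefore does not show that a level is free RNA alone. Where subtraction of this estimate changed a call between gates, the ratios after it are given with that call.

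Of the 9 genes, 8 have an entry in the RefSeq promoter table of build GRCm38.p6, which covers 250 bases before to 50 after the start, and Meiob is the one without. The promoter of Dmc1, at chr15:79605060-79605359 on the minus strand, is shown because DMC1 is the recombinase the other proteins act on. None of the 6 motifs searched on both strands occurs in it, and 69.0% of its bases are G or C.

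Dmc1: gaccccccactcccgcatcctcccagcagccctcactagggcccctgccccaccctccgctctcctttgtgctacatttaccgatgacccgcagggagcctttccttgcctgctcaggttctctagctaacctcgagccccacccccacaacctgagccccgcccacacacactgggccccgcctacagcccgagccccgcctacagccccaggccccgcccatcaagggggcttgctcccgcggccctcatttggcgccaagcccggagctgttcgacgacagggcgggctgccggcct

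The motif TTCCCGC, of the type that E2F factors bind, was found in 4 of the 8 promoters, against 4.60% of all 32851 promoters in the table. The 4 stretches are shown because 3 of these genes, Brca2, Hsf2bp and 4930432K21Rik, encode the BRCA2 protein and its partners. Each stretch is on the gene's own strand with the motif, or its reverse complement GCGGGAA, in capitals and 20 bases on either side. A match is a description of letters and not a binding site. The Hsf2bp window, at chr17:32034459-32034758, lies inside the GENCODE M21 gene model. That model starts upstream of the window, at 32036349 on the minus strand.

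Brca2, chr5:150522433-150522479, plus strand: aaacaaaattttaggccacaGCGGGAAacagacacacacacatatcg

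Hsf2bp, chr17:32034532-32034578, minus strand: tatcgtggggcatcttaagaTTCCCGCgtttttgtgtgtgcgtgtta

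4930432K21Rik, chr8:84148020-84148066, plus strand: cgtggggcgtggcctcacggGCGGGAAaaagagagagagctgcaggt

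Spata22, chr11:73329717-73329763, plus strand: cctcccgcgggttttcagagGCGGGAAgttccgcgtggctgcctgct

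The other motifs were rarer among the 8 promoters. The MYB type motif AACNGNC occurred in Brca2, Psmc3ip and Brip1, against 32.8% of all promoters, and the CRE motif TGACGTCA in Brca2, against 1.79%. No member's window held CACGTG (the E-box of MAX and MGA, in 7.15% of all promoters), CNCCTCAG (STRA8 type, in 7.94%) or GTTGCCAT (RFX type, in 1.35%). The AACNGNC match at the upstream end of Brca2 shares its first base with the GCGGGAA match.

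Dmc1 and Brip1 were high in the preleptotene and leptotene-zygotene gates and near the Sertoli level from pachytene on. Brca2 was highest in the preleptotene gate and Meiob in the leptotene-zygotene gate, and both, with Spata22 and Mnd1, were lower in the diplotene and dividing gate than in pachytene. Psmc3ip, Hsf2bp and 4930432K21Rik kept high levels through the diplotene and dividing gate. The table counts the 3′ ends of transcripts, and levels are compared only within a gene, never between genes.

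**Figure D1:**
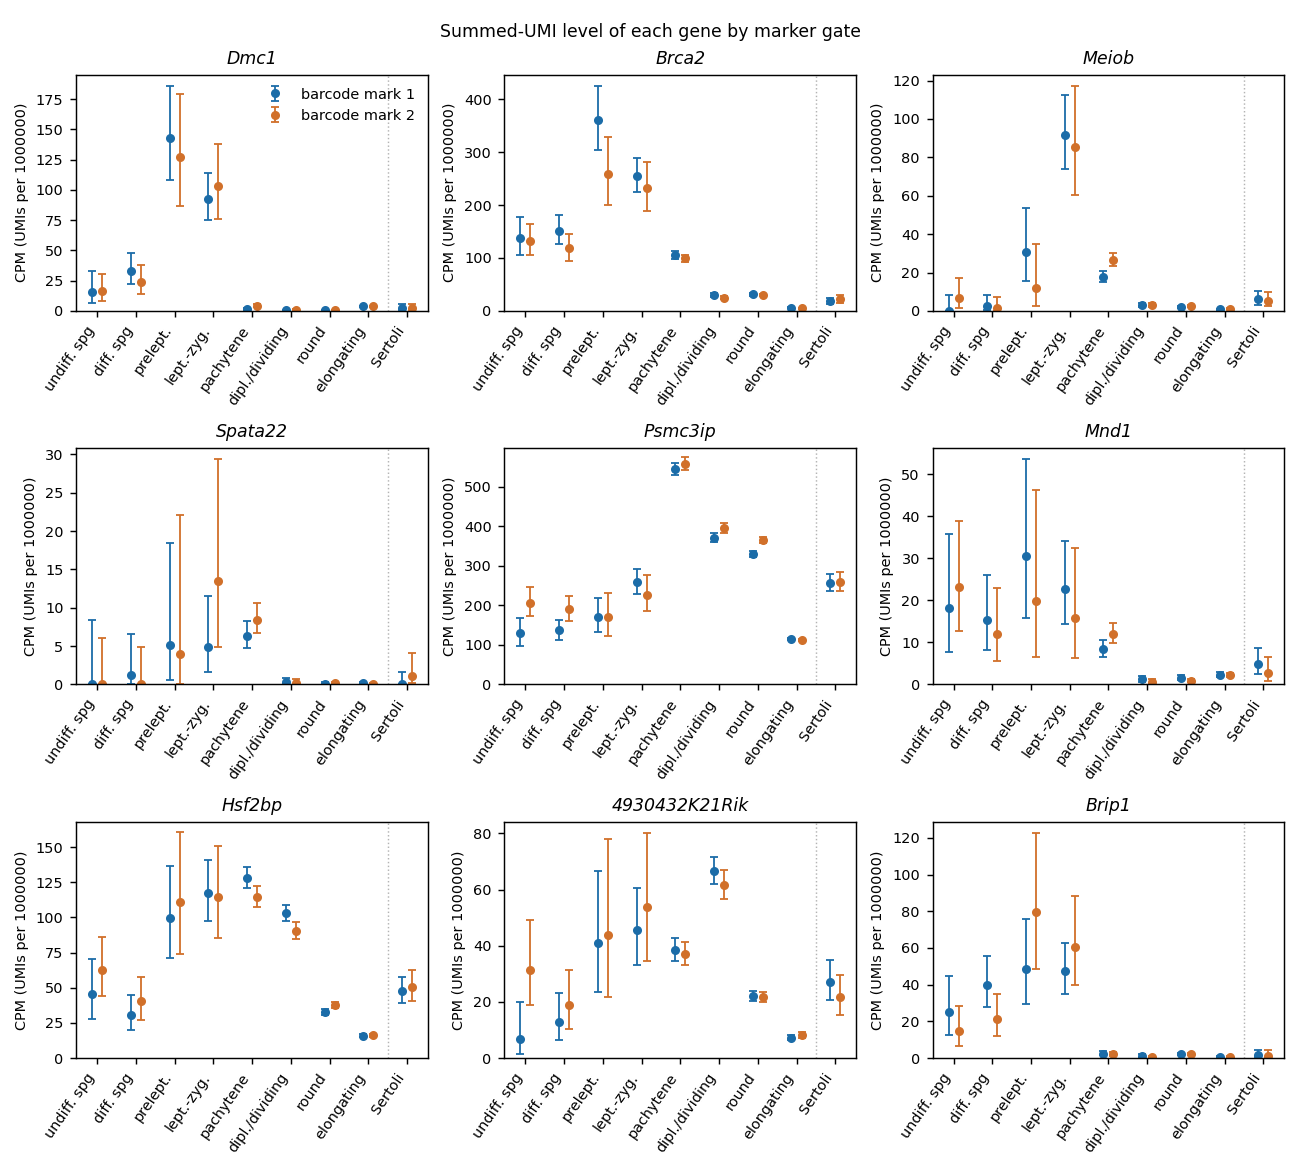
Summed UMIs per 1000000 (CPM, linear axis from 0) of each gene in the 8 germ cell gates and the Sertoli gate, blue for barcode mark 1 and orange for mark 2, with exact 95% Poisson intervals that cover counting error only. Dmc1 stands at 143 and 127 CPM in the preleptotene gate and at 1.5 and 4.12 CPM in the pachytene gate, while Psmc3ip stands at 545 and 558 CPM in the pachytene gate and at 257 and 260 CPM in the Sertoli gate.

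**Figure D2:**
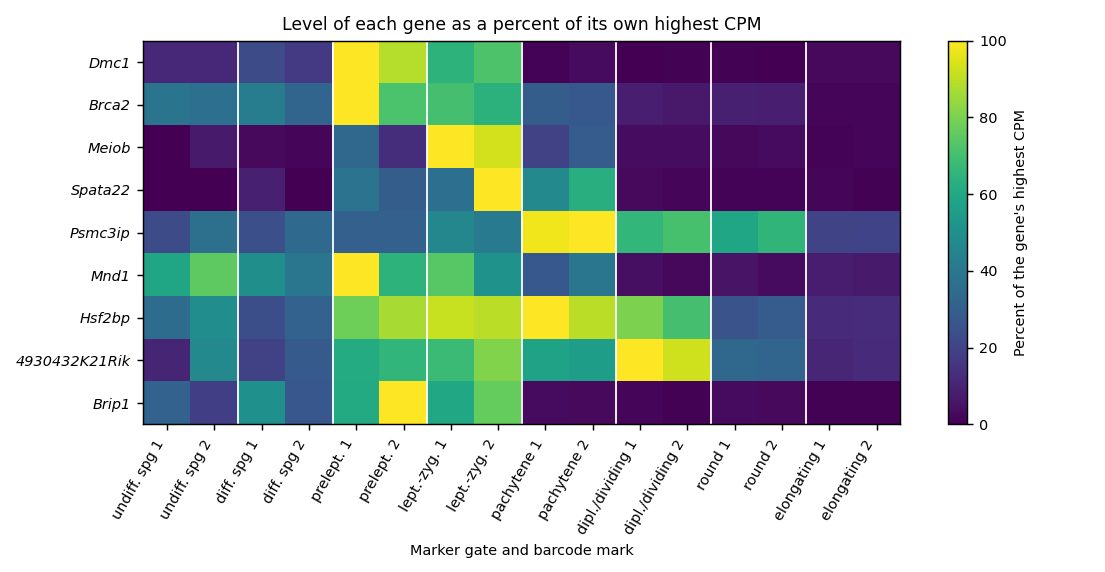
CPM of each gene as a percent of its own highest value over the 8 germ cell gates, shown for both barcode marks (1 and 2 on the horizontal axis). Dmc1, Brca2, Mnd1 and Brip1 have their highest value in a preleptotene column, Meiob and Spata22 in a leptotene-zygotene column, Psmc3ip and Hsf2bp in a pachytene column, and 4930432K21Rik in a diplotene and dividing column.

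Dmc1 lies on chromosome 15 (79561497 to 79605109, minus strand; GENCODE M21 annotation of GRCm38, as for the gene positions below). It was at 15.9 and 16.5 CPM in undifferentiated spermatogonia and at 32.9 and 24.2 CPM in differentiating spermatogonia under marks 1 and 2. The preleptotene level was 143 CPM (95% interval 108 to 186) under mark 1 and 127 CPM (86.9 to 179) under mark 2. The leptotene-zygotene level was 92.9 CPM (75.0 to 114) and 103 CPM (75.7 to 138). The intervals of the preleptotene and leptotene-zygotene gates overlap under both marks, and neither overlaps a spermatogonial interval. In pachytene the level was 1.5 CPM (0.797 to 2.56) and 4.12 CPM (2.89 to 5.70), from 13 and 36 UMIs. The Sertoli gate stood at 2.62 CPM (0.963 to 5.71) and 2.28 CPM (0.622 to 5.84), so the pachytene interval overlapped the Sertoli interval under both marks. After subtraction of the estimated free RNA, 9 of the 13 and 31 of the 36 pachytene UMIs were left.

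Dmc1 in spermatids was spread thinly. Round spermatids held 17 and 14 Dmc1 UMIs, at 0.630 and 0.471 CPM. Elongating spermatids held 138 and 153, at 3.71 CPM (3.12 to 4.38) and 3.82 CPM (3.24 to 4.48), within the Sertoli intervals. Those 138 UMIs lay in 137 barcodes and the 153 in 146, with at most 3 in any barcode, whereas the 94 leptotene-zygotene UMIs of mark 1 lay in 52 barcodes and 25 of these had 2 or more. The elongating gate carried 24.1% of all Dmc1 UMIs in the table, and the barcodes in no gate carried 43.1%. Per barcode, the elongating gate had 0.0602 and 0.0560 Dmc1 UMIs and the preleptotene gate 1.47 and 1.45.

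Brip1, the helicase gene on chromosome 11 (86058138 to 86201193, minus strand), had a pattern close to that of Dmc1. It was at 25.0 and 14.9 CPM in undifferentiated and 40.0 and 21.5 CPM in differentiating spermatogonia. It reached 48.6 CPM (29.3 to 75.9) and 79.4 CPM (48.5 to 123) in the preleptotene gate, and 47.4 CPM (35.0 to 62.9) and 60.7 CPM (40.0 to 88.3) in the leptotene-zygotene gate. Under mark 1 these overlap the differentiating spermatogonial interval, and under mark 2 they do not. The pachytene level was 2.42 and 1.95 CPM, the diplotene level 1.13 and 0.532 CPM, and the Sertoli level 1.75 and 1.14 CPM. The pachytene and diplotene intervals overlap those of the Sertoli gate, which does not show that the level is free RNA alone. After subtraction of the estimated free RNA, 18 of 21 and 14 of 17 pachytene UMIs were left. In the diplotene and dividing gate 9 of 13 and 1 of 5 were left. Round spermatids were at 2.22 and 2.09 CPM, with 45 of 60 and 46 of 62 UMIs left.

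Brca2, on chromosome 5 (150522630 to 150570329, plus strand), had its highest levels in CPM before pachytene. Spermatogonia had 139 and 132 CPM when undifferentiated and 152 and 118 CPM when differentiating, which do not differ beyond their intervals. The preleptotene gate had 361 CPM (304 to 425) and 258 CPM (199 to 329), and the leptotene-zygotene gate 255 CPM (225 to 288) and 232 CPM (189 to 281). Pachytene had 106 CPM (99.0 to 113) and 99.6 CPM (93.1 to 106), and the diplotene and dividing gate 30.1 and 25.2 CPM. Against a Sertoli level of 17.9 CPM (12.9 to 24.3) and 22.2 CPM (15.8 to 30.4), all gates up to pachytene stood above background and the diplotene interval overlapped it under mark 2. Elongating spermatids, at 6.24 and 5.22 CPM, were below it.

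Counted per barcode, Brca2 gave another order. It had 2.80 and 2.06 UMIs per leptotene-zygotene barcode and 3.79 and 3.09 UMIs per pachytene barcode. Pachytene barcodes held a median of 31087 UMIs and leptotene-zygotene barcodes 7923. The Brca2 share of the RNA was lower in pachytene, and its UMIs per barcode were higher. The table cannot tell more RNA per cell from a changed capture rate.

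Hsf2bp, on chromosome 17 (31944769 to 32036349, minus strand), encodes the BRCA2-binding protein also known as MEILB2. Its spermatogonial levels were 45.4 and 62.8 CPM (undifferentiated) and 30.6 and 40.3 CPM (differentiating), in the range of the Sertoli background of 47.7 CPM (39.2 to 57.5) and 50.8 CPM (40.8 to 62.5). It stood at 99.8 CPM (70.9 to 136) and 111 CPM (73.9 to 161) in the preleptotene gate and at 118 CPM (97.4 to 141) and 115 CPM (85.4 to 151) in the leptotene-zygotene gate. Pachytene had 128 CPM (121 to 136) and 115 CPM (108 to 122), and these 3 gates do not differ beyond their intervals. The diplotene and dividing gate had 103 and 90.3 CPM, and round spermatids 32.6 and 37.5 CPM. Its level was thus flat from preleptotene to pachytene, above background under both marks.

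4930432K21Rik, on chromosome 8 (84148025 to 84172590, plus strand), had its highest level later than its partner. It was at 40.9 and 43.7 CPM in the preleptotene gate, 45.4 CPM (33.3 to 60.6) and 54.0 CPM (34.6 to 80.3) in the leptotene-zygotene gate, and 38.5 and 37.0 CPM in pachytene. The diplotene and dividing gate reached 66.6 CPM (61.9 to 71.5) and 61.6 CPM (56.7 to 66.9), above the pachytene intervals of 34.5 to 42.8 and 33.0 to 41.2 CPM. The Sertoli level was 27.1 CPM (20.8 to 34.8) and 21.7 CPM (15.3 to 29.8), which the preleptotene intervals overlap. Under mark 1 the leptotene-zygotene and pachytene intervals also overlap it. After subtraction of the estimated free RNA, 293 of 334 and 278 of 323 pachytene UMIs were left. In UMIs per barcode the gene was at 1.38 and 1.15 in pachytene, 2.02 and 1.74 in the diplotene and dividing gate, and 0.172 and 0.121 in Sertoli cells.

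Psmc3ip and Mnd1 encode both subunits of a dimer, and Psmc3ip alone of them was called higher in pachytene. Psmc3ip, on chromosome 11 (101091823 to 101095436, minus strand), was at 129 and 207 CPM in undifferentiated and 136 and 191 CPM in differentiating spermatogonia, and at 171 CPM under both marks in the preleptotene gate. The leptotene-zygotene level was 259 CPM (228 to 292) and 227 CPM (185 to 276). None of these stood above the Sertoli level of 257 CPM (236 to 278) and 260 CPM (236 to 285). Pachytene rose clear of it, at 545 CPM (529 to 561) and 558 CPM (542 to 573), and the diplotene and dividing gate stayed at 370 and 395 CPM. A pachytene barcode held 19.5 and 17.3 Psmc3ip UMIs and a Sertoli barcode 1.63 and 1.44.

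The same order was seen at a fixed depth. With every barcode thinned to 3500 UMIs, 83.5% and 83.7% of pachytene barcodes had a Psmc3ip UMI, against 45.7% and 46.0% of leptotene-zygotene barcodes and 57.1% and 61.0% of Sertoli barcodes. The leptotene-zygotene share is no higher than the Sertoli share, so the share alone cannot be read as expression. After subtraction of the estimated free RNA, 148 of 262 and 22 of 101 Psmc3ip UMIs were left in the leptotene-zygotene gate. The annotated 3′ end of Psmc3ip overlaps that of Mlx on the opposite strand by 385 bases. The kit reads 3′ ends, and no source used here says whether the counting used strand.

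Mnd1, on chromosome 3 (84087933 to 84155786, minus strand), was sparse. Spermatogonia had 18.2 and 23.1 CPM (undifferentiated) and 15.3 and 12.1 CPM (differentiating). The preleptotene gate had 30.7 CPM (15.9 to 53.6) and 19.9 CPM (6.45 to 46.4) from 12 and 5 UMIs, and the leptotene-zygotene gate 22.7 CPM (14.4 to 34.1) and 15.7 CPM (6.33 to 32.4) from 23 and 7 UMIs. These intervals overlap one another, so no order among the early gates can be read. Pachytene had 8.41 CPM (6.59 to 10.6) and 12 CPM (9.83 to 14.5), and the diplotene and dividing gate 1.22 and 0.639 CPM against a Sertoli level of 4.81 and 2.85 CPM.

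Meiob, on chromosome 17 (24804289 to 24839788, plus strand), was highest in the leptotene-zygotene gate under both marks. Undifferentiated spermatogonia had 0 UMIs under mark 1, with an interval up to 8.38 CPM, and 4 UMIs under mark 2, and differentiating spermatogonia had 2 and 1. The preleptotene level was 30.7 CPM (15.9 to 53.6) and 11.9 CPM (2.46 to 34.8), from 12 and 3 UMIs. The leptotene-zygotene level was 91.9 CPM (74.2 to 113) and 85.4 CPM (60.5 to 117), above the preleptotene intervals under both marks. Pachytene had 17.6 CPM (14.9 to 20.6) and 26.8 CPM (23.5 to 30.4), and the Sertoli gate 6.12 and 5.13 CPM. Per barcode, Meiob was at 1.01 and 0.760 UMIs in the leptotene-zygotene gate and at 0.632 and 0.830 UMIs in pachytene.

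Spata22, the partner of Meiob, was the member with the fewest UMIs. It lies on chromosome 11 (73329741 to 73346044, plus strand), wholly inside the longer gene model Gm49340 on the same strand, which is not a row of the table. Reads shared by both models could have been dropped in the counting. The leptotene-zygotene gate had 5 and 6 UMIs, at 4.94 CPM (1.60 to 11.5) and 13.5 CPM (4.95 to 29.4), and the pachytene gate 55 and 74 UMIs, at 6.34 CPM (4.77 to 8.25) and 8.47 CPM (6.65 to 10.6). The 2 gates do not differ beyond these intervals. The diplotene and dividing gate had 4 and 2 UMIs and the Sertoli gate 0 and 2.

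Shares of barcodes at a fixed depth gave the same contrast with Sertoli cells for the early genes. With every barcode thinned to 3500 UMIs, which left none out, Dmc1 had a UMI in 26.3% and 45.5% of preleptotene and 32.6% and 24.0% of leptotene-zygotene barcodes, against 0.277% and 0.635% of Sertoli barcodes. The Dmc1 share was 1.24% and 2.48% in pachytene, where the exact interval overlaps that of the Sertoli gate. Meiob had a UMI in 32.6% and 18.0% of leptotene-zygotene, 10.3% and 8.16% of pachytene and 1.94% and 0.952% of Sertoli barcodes. For Hsf2bp the Sertoli share of 17.2% and 18.4% was closer to the pachytene share of 36.0% and 33.7%. Median depths before thinning were 7923 UMIs in the leptotene-zygotene gate, 31087 in the pachytene gate and 4771 in the Sertoli gate. Unthinned, the Dmc1 share of the leptotene-zygotene gate was 56.5% and 42.0% and that of the Sertoli gate 1.11% and 1.27%.

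**Figure D3:**
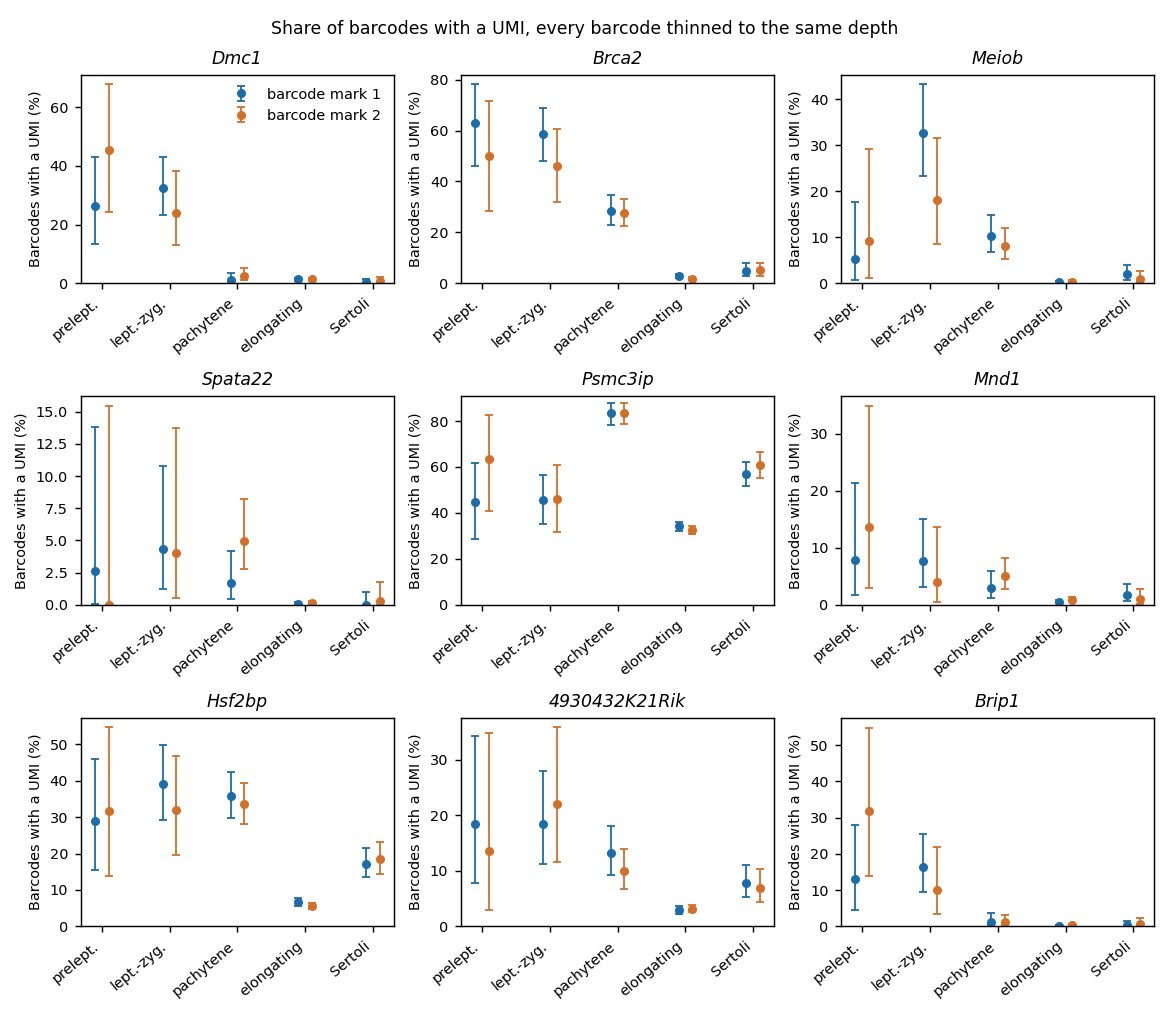
Percent of barcodes with at least 1 UMI of each gene after thinning every barcode to 3500 UMIs, in 5 gates, blue for mark 1 and orange for mark 2, with exact 95% binomial intervals. Psmc3ip reaches 57.1% and 61.0% in Sertoli barcodes, above its leptotene-zygotene share of 45.7% and 46.0%, while Dmc1 is at 0.277% and 0.635% in Sertoli barcodes.

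Gates were then compared by a fixed rule. A call needed a CPM ratio of 2-fold or more, an exact 95% interval of that ratio that left out 1, and 20 or more UMIs of the gene in the higher gate. Marks 1 and 2 each had to meet all of these, with the ratio on the same side of 1. The same rule was run on every gene of the table with enough UMIs. The share of those genes that it called is given as the background for each count.

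Between the joined spermatogonial gates and the leptotene-zygotene gate, 4 genes were called higher: Meiob, Dmc1, Hsf2bp and 4930432K21Rik. Meiob had a ratio of 59.3 (16 to 497) under mark 1, resting on 2 spermatogonial UMIs, and 23.1 (9.07 to 75.1) under mark 2. Dmc1 had 3.42 (2.30 to 5.20) and 4.99 (3.05 to 8.29), Hsf2bp 3.30 (2.33 to 4.74) and 2.28 (1.55 to 3.32), and 4930432K21Rik 4.19 (2.26 to 8.25) and 2.21 (1.25 to 3.85). No member was called lower, and 8 of the 9 had enough UMIs to be called. Over all 8071 genes that could be called, the rule called 2.63% higher and 11.3% lower. The median log2 ratio of the 8 members was 1.34 and 1.16, and that of all genes -0.02 and -0.01. Counted as UMIs per barcode, Hsf2bp and 4930432K21Rik were not called and Dmc1 and Meiob were. Spermatogonial barcodes held a median of 13395 UMIs. After subtraction of free RNA, the 4930432K21Rik ratio was at least 13.2 under mark 1, where 0 spermatogonial UMIs were left and the floor of 3 counts was used, and 3.94 under mark 2, but 16 UMIs were left under mark 2 and the gene missed the count minimum. It was also not called with a looser margin (3.51 and 1.81), with a stricter one (4.58 and 2.10) or with at least 8000 UMIs per barcode (3.31 and 1.94).

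Brca2 and Brip1 were not called between these gates. The Brca2 ratio was 1.73 (1.43 to 2.10) and 1.86 (1.44 to 2.39), with intervals that left out 1, and with a stricter gate margin it was called higher at 2.68 and 2.60. Brip1 had 1.36 (0.887 to 2.09) under mark 1 and 3.28 (1.83 to 5.89) under mark 2. Psmc3ip had 1.93 and 1.15, and Mnd1 had 1.40 and 0.924, with intervals under mark 2 that hold 1. Without the most abundant marker of each gate, Psmc3ip was called higher at 2.03 and 2.07. For Spata22 the spermatogonial gates had 1 and 0 UMIs, and it could not be called.

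Dmc1, Brca2 and Hsf2bp were called higher in the preleptotene gate than in spermatogonia. That gate held the leptotene-zygotene markers at 1005 and 1045 CPM, against 1177 and 1299 CPM in the leptotene-zygotene gate. Its own markers were at 1632 and 1756 CPM, against 289 and 396 CPM in the leptotene-zygotene gate. The 2 gates were thus set apart mainly by Stra8, Gm4969 and Prss50, and how far their stages are mixed was not tested. The Dmc1 ratio was 5.28 (3.40 to 8.30) and 6.13 (3.58 to 10.6), the Brca2 ratio 2.45 (1.96 to 3.06) and 2.08 (1.53 to 2.78), and the Hsf2bp ratio 2.80 (1.78 to 4.38) and 2.21 (1.37 to 3.48). These 3 calls came from 6 members that could be called, with none lower, where the rule called 1.73% of 8023 genes higher and 4.42% lower. With the most abundant marker of each gate left out, the preleptotene gate shrank to 11 and 6 barcodes and none of the 3 was called, with Dmc1 ratios of 5.11 and 4.43. Counted per barcode, Dmc1 alone was called, and Brca2 and Hsf2bp were at 1.66 and 1.51 and at 1.90 and 1.61. After subtraction of free RNA the Hsf2bp ratio was 10.9 and 23.2, but 13 UMIs were left under mark 2, below the count minimum. With at least 8000 UMIs per barcode Brca2 (2.62 and 1.91) and Hsf2bp (2.63 and 1.93) were not called, and Hsf2bp was also not called with no minimum of UMIs per barcode (2.62 and 1.93) or with a stricter margin (2.43 and 2.28).

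From the preleptotene to the leptotene-zygotene gate only Meiob was called, as higher, by 2.99-fold (1.63 to 6.0) and 7.17-fold (2.27 to 36.3). The second value rests on 3 preleptotene UMIs. The Dmc1 ratio was 0.648 (0.461 to 0.919) and 0.814 (0.507 to 1.32), and that of Brca2 0.707 (0.573 to 0.874) and 0.897 (0.651 to 1.24). For both genes the interval holds 1 under mark 2. The other 4 members that could be called, Psmc3ip, Hsf2bp, 4930432K21Rik and Brip1, had ratios from 0.764 to 1.51. Of 4628 genes the rule called 2.01% higher and 2.03% lower. The Meiob call was lost when the most abundant marker of each gate was left out, with ratios of 5.15 and 1.99, and after subtraction of free RNA, at 2.14 and 1.24. Dmc1 was called lower with a looser gate margin, at 0.443 and 0.446. After subtraction of free RNA, Dmc1 (0.438 and 0.0971) and Brca2 (0.474 and 0.110) were called lower, on a mark 2 preleptotene gate that was nearly all free RNA by the estimate.

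Between leptotene-zygotene and pachytene, 4 genes were called lower and Psmc3ip was called higher. Dmc1 was 62.0-fold lower (34.6 to 121) under mark 1 and 25.1-fold lower (15.9 to 40.0) under mark 2, and Brip1 was 19.6-fold (11.5 to 34.5) and 31.2-fold (16.4 to 61.0) lower. Meiob was 5.21-fold (3.98 to 6.79) and 3.19-fold (2.20 to 4.51) lower, and Brca2 2.41-fold (2.09 to 2.77) and 2.33-fold (1.88 to 2.86) lower. Psmc3ip was higher by 2.11-fold (1.86 to 2.39) and 2.46-fold (2.02 to 3.02). All 9 members could be called, and of 11089 genes the rule called 4.73% higher and 9.69% lower. Hsf2bp had ratios of 1.09 (0.901 to 1.33) and 1.00 (0.755 to 1.35), 4930432K21Rik 0.847 and 0.685, and Mnd1 0.370 (0.229 to 0.620) and 0.764 (0.358 to 1.95).

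These ratios depend on the scale. TMM factors, which align the middle of the gene distribution, moved every pachytene to leptotene-zygotene log2 ratio up by 0.55 and 0.54, and Brca2 was then not called, at 0.609 and 0.626. Counted per barcode, the Brca2 ratio turned to 1.35 and 1.5, Meiob was at 0.625 and 1.09, and Hsf2bp and 4930432K21Rik were called higher at 3.55 and 3.48 and at 2.76 and 2.39. Dmc1 and Brip1 were called lower on all of these scales. Psmc3ip was not called with a looser gate margin, at 1.77 and 1.5, with at least 8000 UMIs per barcode, at 1.92 and 2.82, or without the most abundant marker of each gate, at 1.94 and 1.56. Without those markers Meiob was at 0.364 and 0.995 and was not called. Brca2 was not called with a looser margin (0.573 and 0.610) or with at least 8000 UMIs per barcode (0.515 and 0.474). Brip1 missed the count minimum with a stricter margin (0.0251 and 0.0261) and with at least 8000 UMIs per barcode (0.0492 and 0.0250).

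**Figure D4:**
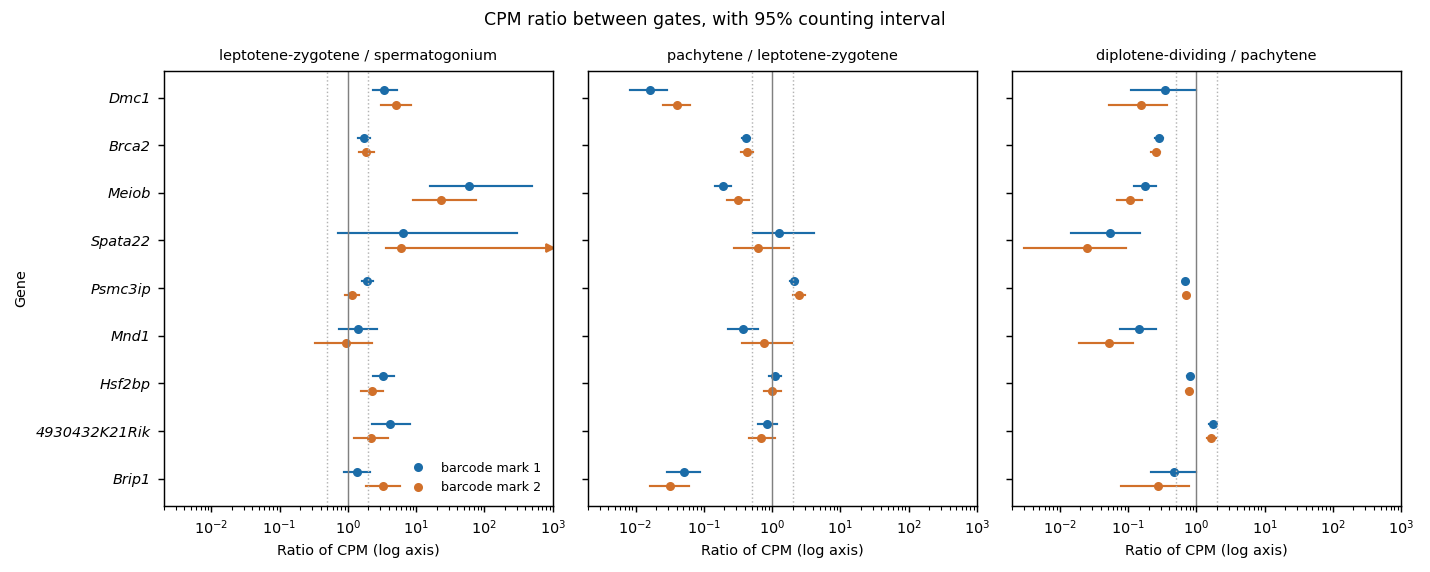
Ratio of CPM between 2 gates (log axis) for each gene, blue for mark 1 and orange for mark 2, with exact 95% counting intervals; the solid line is 1 and the dotted lines are the 2-fold limits of a call. Dmc1 and Brip1 lie far below the lower limit in the middle panel, Psmc3ip lies just above the upper one at 2.11 and 2.46, and the arrow of Spata22 in the left panel is an interval with no upper end because its spermatogonial count under mark 2 is 0.

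Pachytene is a long stage, and depth ordered the barcodes within its gate. The gate was divided by UMIs per barcode into 6000 to 12000 (37 and 35 barcodes), 12000 to 20000 (15 and 36), 20000 to 40000 (100 and 140) and above 40000 (90 and 71). Meiob was at 74.6 CPM (47.3 to 112) and 111 CPM (76.9 to 155) in the shallowest barcodes and at 9.55 CPM (7.06 to 12.6) and 12.9 CPM (9.48 to 17.2) in the deepest. Mnd1 was at 42.2 CPM (22.5 to 72.1) and 65.4 CPM (39.9 to 101) in the shallowest and at 2.73 and 4.67 CPM in the deepest. The shallow and deep intervals of Meiob and Mnd1 do not overlap under either mark.

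Dmc1 followed the same direction, from 19.5 and 29.4 CPM to 0.780 and 1.10 CPM, with only 6 and 9 UMIs in the shallowest barcodes. Psmc3ip was at 399 CPM (332 to 476) and 330 CPM (269 to 401) in the shallowest barcodes and at 543 and 559 CPM in the deepest. Hsf2bp was at 97.3 and 101 CPM in the shallowest and 132 and 117 CPM in the deepest, with overlapping intervals. Sycp3 moved with Meiob, from 1084 and 1451 CPM to 463 and 563 CPM, and Piwil1, a marker of the gate, from 659 and 621 CPM to 1145 and 1165 CPM. In the shallowest pachytene barcodes the Meiob intervals overlapped those of the leptotene-zygotene gate, and Mnd1 was at or above its leptotene-zygotene level. One of these bins, 12000 to 20000 under mark 1, held 15 barcodes. Whether depth here tracks the age of the cell or the mix of cells was not tested.

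**Figure D5:**
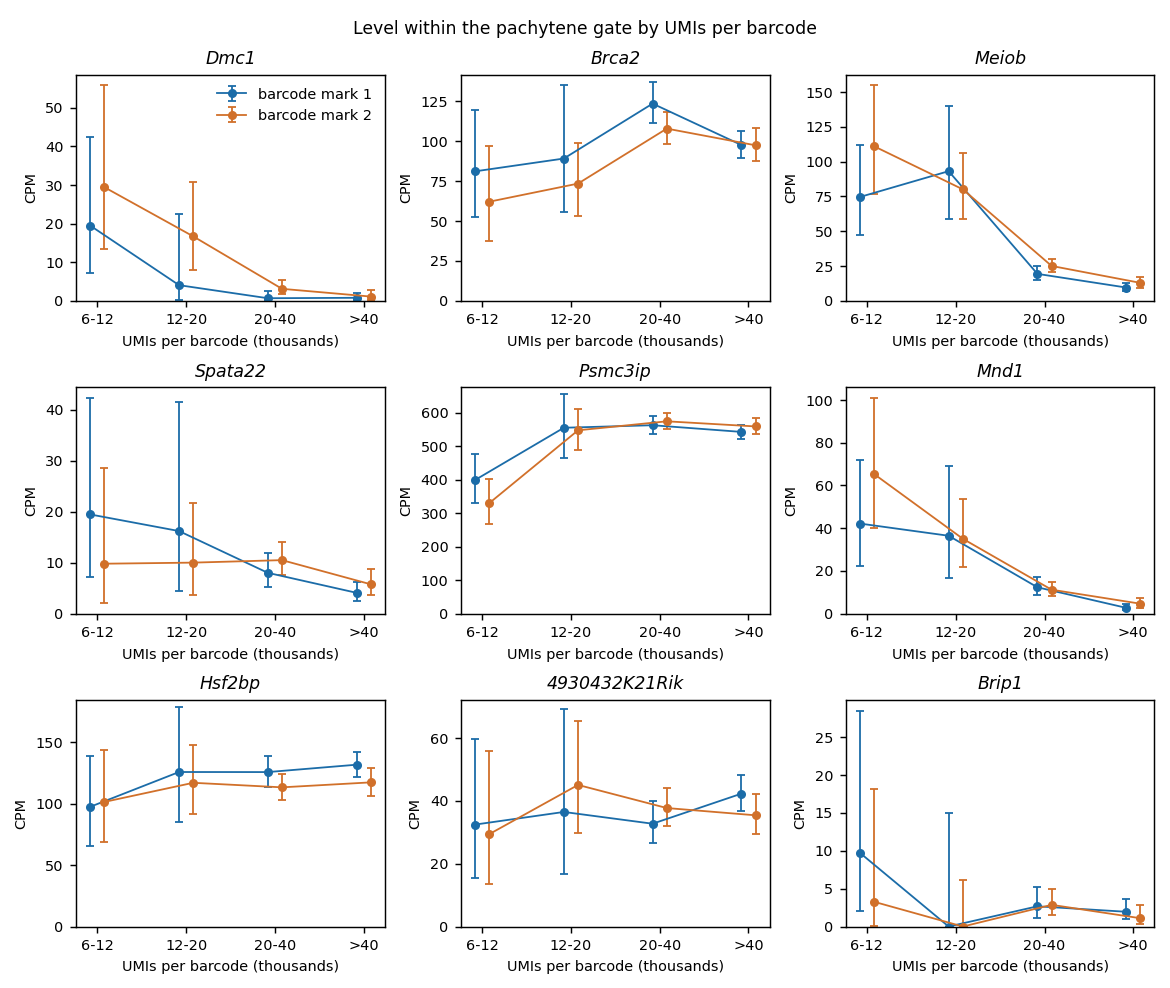
CPM of each gene within the pachytene gate (linear axis from 0) against UMIs per barcode in 4 bins, blue for mark 1 and orange for mark 2, with exact 95% Poisson intervals; lines join the bins of one mark. Meiob goes from 74.6 and 111 CPM in the shallowest bin to 9.55 and 12.9 CPM in the deepest, and Hsf2bp is at 97.3 and 101 CPM in the shallowest and 132 and 117 CPM in the deepest.

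From pachytene to the diplotene and dividing gate, Brca2, Meiob, Spata22 and Mnd1 were called lower. Spata22 was 18.2-fold (6.70 to 69.0) and 39.8-fold (10.6 to 335) lower, the latter resting on 2 diplotene UMIs. Mnd1 was 6.89-fold (3.85 to 13.2) and 18.8-fold (8.36 to 52.4) lower, Meiob 5.61-fold (3.88 to 8.31) and 9.32-fold (6.24 to 14.4), and Brca2 3.51-fold (3.1 to 3.99) and 3.95-fold (3.41 to 4.58). No member was called higher, and 7 could be called. Among 12201 genes the rule called 15.7% higher and 25.0% lower. Psmc3ip had ratios of 0.679 and 0.708 and Hsf2bp 0.804 and 0.787, and 4930432K21Rik was the one member above 1, at 1.73 (1.52 to 1.97) and 1.67 (1.45 to 1.92). Dmc1 and Brip1 already had too few UMIs in pachytene to be called.

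In round spermatids against pachytene, the same 4 genes and Hsf2bp were called lower and none higher. Spata22 was 57.0-fold (18.5 to 285) and 62.9-fold (23.6 to 237) lower, Meiob 8.20-fold and 9.95-fold, Mnd1 5.28-fold and 12.8-fold, Hsf2bp 3.93-fold and 3.06-fold, and Brca2 3.39-fold and 3.33-fold. The rule called 31.0% of 14600 genes higher and 34.1% lower, so 5 of 8 members stands against a background that is itself large. Psmc3ip was at ratios of 0.605 and 0.654 and 4930432K21Rik at 0.576 and 0.586, and after subtraction of free RNA the latter was called lower at 0.477 and 0.494. Brip1 was at 0.919 and 1.07.

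The list of 37 other genes of homologous strand exchange, such as RPA subunits and Fanconi genes, was described in the same way. All 37 are rows of the table. Between spermatogonia and the leptotene-zygotene gate, 1 of 28 that could be called was higher and 2 were lower, and the list's median log2 ratio was -0.30 and -0.18. The higher one was Rad51ap2, which went from 1.55 and 2.22 CPM (2 and 3 UMIs) to 136 and 166 CPM, a ratio of 88.0 (23.9 to 734) and 74.9 (24.6 to 371). The lower ones were Rpa2, an RPA subunit, at 2.38-fold and 2.58-fold lower, and Rad50, of the complex that trims break ends, at 2.43-fold and 2.79-fold lower. In the preleptotene gate against spermatogonia, none of 27 was higher and Bccip, a BRCA2-binding gene, was 2.83-fold and 3.23-fold lower. From preleptotene to leptotene-zygotene 1 of 16 was called, again Rad51ap2, higher by 3.55-fold and 14.0-fold.

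In pachytene against leptotene-zygotene, Rad51ap2 was 34.8-fold and 19.4-fold lower and Xrcc2, a gene of homologous repair, was 2.32-fold and 2.66-fold higher, out of 36 that could be called. The list's median log2 ratio was -0.20 and -0.14, that of the 9 members -1.27 and -0.67, and that of all genes -0.12 and -0.14.

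In the diplotene and dividing gate 17 of 37 were called lower and 2 higher, with a median log2 ratio of -0.95 and -1.21 against -0.09 and -0.10 for all genes. Among the largest were Rad54b (10.0-fold and 11.7-fold lower), a DNA motor protein of homologous repair, Spidr (9.63-fold and 10.4-fold) and Exo1 (7.58-fold and 8.60-fold), a nuclease that trims break ends. Rpa1, the large RPA subunit, was 2.47-fold and 2.43-fold higher and Rad51b 2.44-fold and 2.55-fold higher. In round spermatids 27 were called lower and 2 higher, with Rpa3 at 28.1-fold and 28.0-fold lower, Rpa2 at 20.3-fold and 37.2-fold and Exo1 at 16.1-fold and 19.6-fold. Rad51b was then 9.88-fold and 7.19-fold higher and Swsap1 4.33-fold and 6.71-fold higher.

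Levels across the 8 germ gates and both marks, 16 values in all, give a description of which members move alike. Pearson's r of log2(CPM + 10) was 0.96 for Dmc1 and Brip1, 0.91 for Brca2 and Mnd1, 0.88 for Meiob and Spata22 and 0.88 for Hsf2bp and 4930432K21Rik. It was -0.28 for Psmc3ip and Mnd1, whose products act as one dimer. The 16 values share 2 libraries and their free RNA and come in pairs from the same gates, so they are not independent. The mean of the 9 members was taken on CPM scaled to each member's highest value, without logarithms. Its r with log2(CPM + 10) of another gene is therefore not the same measure as the r between members. Of 15342 other genes, the 5 most like this mean were Inca1 (r of 0.97), H2-K1 (0.97), Zhx1 (0.96), Msh5 (0.96) and Garnl3 (0.96). Msh5, a meiotic MutS homologue of crossover formation, is the one of these with a known part in recombination.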

How the data were processed

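The authors deposited 1 table of UMI counts per gene and cell barcode, with no cell annotation; per the labels' protocols it came from 10x Genomics 3′ v3.1 libraries of FACS-cleaned testis suspensions, and GRCm38 with Cell Ranger (version 1.3.1) and Seurat (version 3.2.2) are listed, per the submitters' processing notes, with no step described. The counts were used as deposited. Members and lists were chosen with earlier results of these data known.

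A barcode was scored per gate by the log2 excess of its marker UMIs over that expected from its depth (1 added to each), relative to the 50th-highest barcode. It was assigned where the relative score was at least 0.5, at least 0.1 above the next gate and based on 3 markers (2 for preleptotene), and where a germ barcode had 6000 UMIs. These thresholds were set after the data were seen. Doublets were not called, and barcodes with tied gates were left out. UMIs were summed per gate and mark and scaled to CPM. Intervals are exact Poisson (levels), Clopper-Pearson (shares) or conditional binomial (ratios) at 95%, and a count of 0 was replaced by a floor of 3 counts in ratios. PCR is corrected by UMIs, and intervals cover counting error only. The text names all 9 members and up to 4 called genes of the pathway list per direction. Values of 1 gene of that list are not reported here. The 5 genes most like the members needed 100 UMIs. The calling rule was tested on simulated data with counting error only and with changes set in well-counted genes. That simulation did not cover recovery of changes at low counts, free RNA or mixed gates. Alternatives covered gate margins, markers, scaling (edgeR 4.0.16 TMM factors in R 4.3.3), thresholds, free RNA (profile of barcodes under 4500 UMIs in no gate) and possible doublets. Python 3.11.15, NumPy 2.4.6 and SciPy 1.17.1 were used.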

Additional observations from a re-analysis of the deposited data

Results flagged for a closer look

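The barcodes in no gate, 66.0% of all, entered no comparison, and for 2 of the 9 genes the 95% interval of the level there lay wholly above that of the Sertoli gate under both marks. Brca2 was at 36.5 CPM under mark 1 and 31.8 CPM under mark 2, against 17.9 and 22.2 CPM in the Sertoli gate. Psmc3ip was at 327 and 350.4 CPM, against 257 and 260 CPM. These barcodes held a median of 4689 UMIs, and which cells they came from was not tested.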

How the results depend on the processing

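The counts of called members from pachytene to the diplotene and dividing gate (4) and to round spermatids (5) stayed within 1.5 times under every alternative run. The count from spermatogonia to leptotene-zygotene (4) became 2 at 3-fold, 2 per barcode and 1 with a minimum of 50 UMIs. The count from spermatogonia to preleptotene (3) became 1 at 3-fold, 1 per barcode, 1 with at least 8000 UMIs per barcode, 1 with a minimum of 50 UMIs and 0 without the top marker of each gate. The count from preleptotene to leptotene-zygotene (1) became 0 at 3-fold, with a minimum of 50 UMIs and without the top markers, and 2 with free RNA subtracted or a looser gate margin. With free RNA subtracted, 5.38% of the preleptotene UMIs of mark 2 remained, so that value says little. The count from leptotene-zygotene to pachytene (5) became 3 at 3-fold, with a looser margin and without the top markers, and 2 with at least 8000 UMIs per barcode or a minimum of 50. For the pathway list, the count from spermatogonia to leptotene-zygotene (3) became 1 at 3-fold, 9 per barcode and 7 with a looser margin. Its count from leptotene-zygotene to pachytene (2) became 4 at 1.5-fold, 5 with TMM factors, free RNA subtracted or no count minimum, 25 per barcode, and 1 at 3-fold, with at least 8000 UMIs or without possible doublets. Per barcode, every pachytene to leptotene-zygotene log2 ratio moves up by 1.70 and 1.80, and that of Brca2 reversed to 0.51 (0.44 and 0.58 under marks 1 and 2). The alternatives with no minimum or 8000 UMIs per barcode were chosen after seeing the data. Of 756 member ratios under alternatives, 696 kept their call or lack of one, a total that includes ratios never called. Among the 60 others, 44 lost a call while the mean ratio kept its direction, and 1, that of Brca2 per barcode, lost it with the ratio reversed. All lost calls lay in the comparisons up to pachytene, so the early calls were less steady than the total shows. The gates before pachytene hold 22 to 92 barcodes per mark, which limits Spata22, Mnd1 and preleptotene values most. No paired analysis was possible because each genotype has 1 library and no test was run.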
